A study of Arabidopsis thaliana with 12 samples.

Results

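Transcripts of 6 nuclear genes for protein synthesis inside organelles were compared between the prors1 mutant and the wild type (WT) of Arabidopsis thaliana. Of these, 5 encode proteins of the plastid ribosome: S6 (AT1G64510) and S10 (AT3G13120) of the small subunit, and L5 (AT4G01310), L17 (AT3G54210) and L34 (AT1G29070) of the large subunit. The other one encodes an organellar aspartyl-tRNA synthetase (AspRS, AT4G33760). Each was taken as the probe whose platform annotation names that locus and no other, which gave 6 probes of 3439, 1 for each gene. All 6 were among the 3303 features tested, where a feature is a probe or the mean of the probes of 1 locus.

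Total RNA of 6 prors1 samples and 6 WT samples, all in the Columbia 0 ecotype, was measured on single-channel arrays. The labels describe the mutant as lacking a prolyl-tRNA synthetase and give no allele, tissue, age or growth condition. Replicates carry numbers 1 to 6 in both genotypes, and nothing says whether they are separate plants, so the p-values speak of the spread among these arrays, part or all of which may be technical. The level of PRORS1 itself was not analysed here, because no single-gene probe is annotated to it.

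Plastids keep a ribosome of bacterial type, built from ribosomal RNA and some proteins encoded in the plastid together with many proteins encoded in the nucleus and imported. The small subunit holds and decodes the messenger RNA, and the large subunit joins the amino acids. Aminoacyl-tRNA synthetases supply both with charged transfer RNA: the enzyme that the labels describe as lacking in prors1 loads proline, and AspRS loads aspartate. In leaves most of the plastid's translation goes into photosynthetic complexes.

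One property of the arrays touches every result below. The median deposited intensity per array ran between 0.2497 and 0.4443 in prors1, and between 0.1355 and 0.1688 in WT, on the authors' scale, which ends at 100. Each array listed between 215 and 316 probes at exactly 0 in prors1, and between 368 and 396 in WT. In total RNA of whole samples, a lower share of cells expressing a gene and less RNA of it per cell cannot be told apart.

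As deposited, the log2 differences (prors1 minus WT) of S10, L5, L17 and AspRS lay between 0.07 and 0.34, against 0.91 for the median of all features. After quantile scaling, which gives all arrays the same distribution, 5 of the 6 genes passed the test as lower in prors1 and none as higher. As deposited 0 passed as lower, beside 5.50% of all features, and 2 as higher, beside 61.4%. Division by array means gave 0 as lower, beside 7.41%, and 1 as higher, beside 55.9%. The labels name no sets of samples, but samples 1-2, 3-4 and 5-6 of a genotype resembled each other. With these samples averaged, 3 passed as lower, beside 11.8%. With them taken as correlated sets 3 also did, beside 16.4%. After quantile scaling AspRS was 1.89-fold lower than in WT, S10 1.82-fold, L5 1.48-fold and L17 1.31-fold. S6 was 3.20-fold lower, a size set in part by the intensity floor, at 3.90-fold with a lower and 2.28-fold with a higher one. L34, listed at 0 in every WT sample, did not pass. Over all features, 23.2% passed as lower and 19.6% as higher after quantile scaling (limma with Benjamini-Hochberg adjustment over 3303 features, threshold 0.05). The median log2 difference of the 6 genes was -0.71, beside -0.02 over all features.

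**Figure D1:**
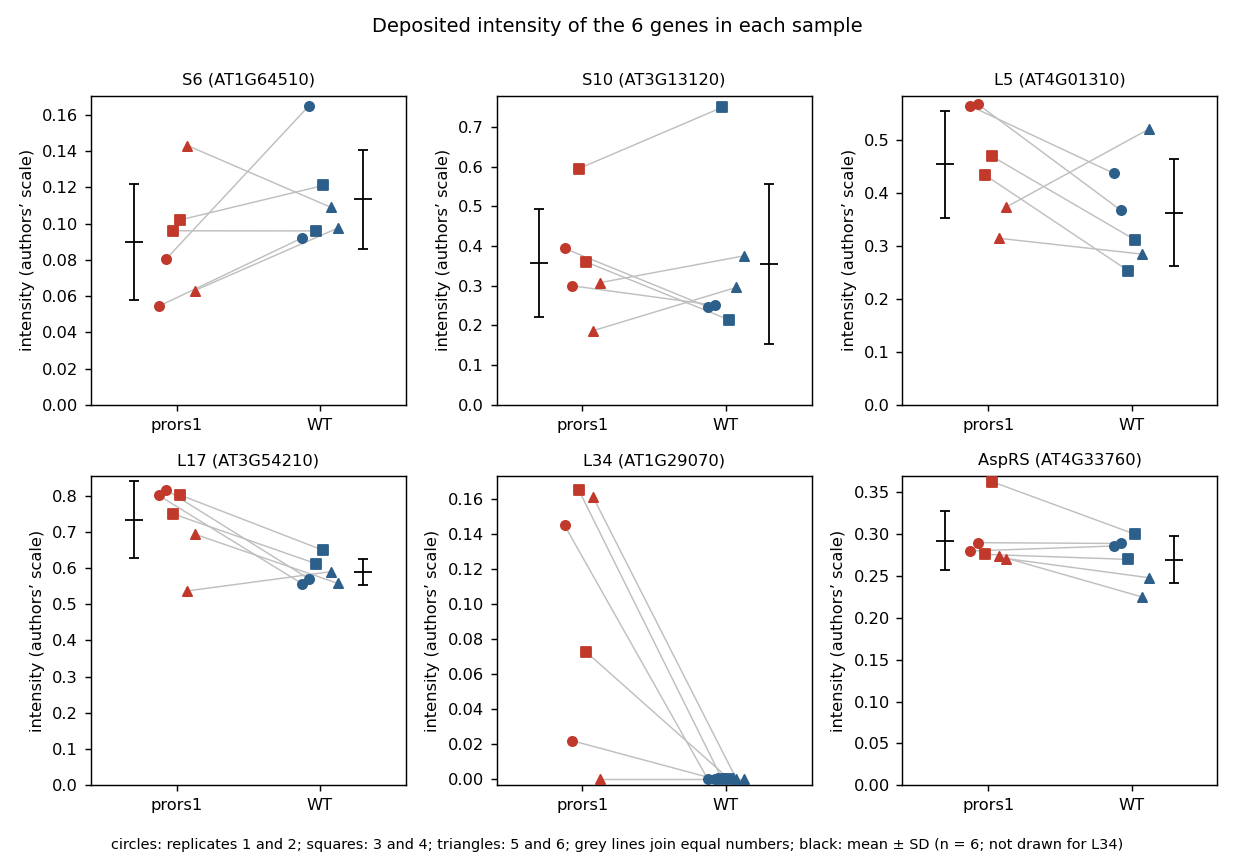
Deposited intensity (vertical axis, linear, the authors' scale) of the 6 genes in each prors1 sample (red, left) and WT sample (blue, right), with grey lines joining equal replicate numbers and black bars for mean ± SD. The genotypes overlap for all 6 genes, L17 has 1 prors1 sample (0.537) below all WT samples, and L34 stands at 0 in all WT samples and in prors1 replicate 6.

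S6 is a protein of the small subunit's platform in bacteria, where it binds together with S18. Its deposited intensities in prors1 replicates 1 to 6 were 0.0544, 0.0803, 0.096, 0.102, 0.143 and 0.063. In WT replicates 1 to 6 they were 0.092, 0.165, 0.0959, 0.121, 0.109 and 0.0975. The prors1 samples spread below and into the WT range, and only replicates 1, 2 and 6 lay under every WT value. The means were 0.0898 ± 0.0319 in prors1 and 0.113 ± 0.0273 in WT (SD, n = 6 each, exact two-sided permutation p = 0.208).

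Against the other probes of its own array S6 stood far lower in the mutant. It ranked between the 10.4th and 31.6th percentile of probes in prors1, and between the 33.9th and 51.3rd in WT, with no overlap. Of all features, 16.3% ranked wholly below WT in this way. On the quantile-scaled log2 scale it averaged -4.07 ± 0.65 in prors1 and -2.39 ± 0.28 in WT (SD, n = 6 each), a difference of -1.68 ± 0.27 (SE, adjusted p = 0.000344 in limma). The prors1 replicates 1 to 4 lay at the intensity floor of 0.0467, below which values were set to it, so the scaled difference depends on the floor, at -1.97 with one at the 1st and -1.19 with one at the 10th percentile of positive values. The size also rests on the scaling, since the difference was -0.38 on the values as deposited (95% interval -0.89 to 0.13, adjusted p = 0.168 in limma).

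S10 sits in the head of the small subunit, and its bacterial counterpart also takes part in transcription antitermination. Its deposited intensities were 0.394, 0.3, 0.595, 0.360, 0.187 and 0.308 in prors1 replicates 1 to 6. The WT replicates 1 to 6 had 0.247, 0.251, 0.749, 0.214, 0.296 and 0.375. Replicate 3 was the highest sample of both genotypes, and the groups covered nearly the same range. The means were 0.357 ± 0.136 in prors1 and 0.355 ± 0.201 in WT (SD, n = 6 each, exact permutation p = 0.983).

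After quantile scaling S10 averaged -2.0 ± 0.39 in prors1 and -1.14 ± 0.53 in WT on the log2 scale (SD, n = 6 each). The difference of -0.86 ± 0.25 (SE) passed the test (adjusted p = 0.0149 in limma). Each prors1 sample lay below the WT sample of its own number, beside 24.6% of all features, although the groups overlapped. With the number as a block, the same 5 of the 6 genes passed as lower, beside 26.5% of features, and for S10 it lowered the SE to 0.14 (adjusted p = 0.00177). With samples 1-2, 3-4 and 5-6 of each genotype treated as correlated sets the call was lost (adjusted p = 0.168), as it was without replicate 5 of both genotypes (adjusted p = 0.0572 in limma), without samples 1-2 (0.0727) or without samples 5-6 (0.124).

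L5 binds the smallest ribosomal RNA in the large subunit of bacteria. Its deposited intensities were 0.565, 0.569, 0.435, 0.470, 0.315 and 0.374 in prors1 replicates 1 to 6. In WT replicates 1 to 6 they were 0.438, 0.368, 0.254, 0.312, 0.285 and 0.522. The prors1 sample was the higher one in 5 of 6 equal-numbered pairs and the lower one in replicate 6. The deposited means were 0.454 ± 0.102 in prors1 and 0.363 ± 0.101 in WT (SD, n = 6 each, exact permutation p = 0.143).

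The order was turned round by quantile scaling. L5 then averaged -1.57 ± 0.33 in prors1 and -1.01 ± 0.37 in WT on the log2 scale (SD, n = 6 each). The prors1 sample was the lower one in 6 of 6 pairs, beside 24.6% of all features. The difference of -0.56 ± 0.20 (SE, adjusted p = 0.0358 in limma) was the call nearest the threshold among the 5. It was lost when any of WT replicates 1, 2 and 6 or prors1 replicates 3, 4 and 5 was left out, with adjusted p between 0.0202 and 0.164 over 21 fits that left out samples. It was also lost with samples 1-2, 3-4 and 5-6 averaged into 3 sets per genotype (adjusted p = 0.16 in limma).

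L17 lies near the exit of the peptide tunnel in bacterial ribosomes. Its deposited intensities in prors1 replicates 1 to 6 were 0.801, 0.817, 0.75, 0.802, 0.537 and 0.694. In WT replicates 1 to 6 they were 0.557, 0.570, 0.612, 0.649, 0.590 and 0.558. All prors1 samples except replicate 5 lay above every WT sample. The deposited means were 0.733 ± 0.106 in prors1 and 0.589 ± 0.036 in WT (SD, n = 6 each, exact permutation p = 0.0195).

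Within its array, however, L17 held a lower place in prors1. Its percentile ran from 72.4 to 79.5 in prors1 and from 81.7 to 83.7 in WT, beside 16.3% of all features wholly below WT. The quantile-scaled log2 level was -0.79 ± 0.17 in prors1 and -0.40 ± 0.05 in WT (SD, n = 6 each), a difference of -0.39 ± 0.10 (SE, adjusted p = 0.00602 in limma). On the values as deposited L17 passed as higher in prors1, at 0.30 ± 0.12 on the log2 scale (SE, adjusted p = 0.0453), so its direction depends on the scaling. Of all features, 61.4% passed as higher on those values and 5.50% as lower. The set-averaged fit did not call L17 (-0.39, adjusted p = 0.116).

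L34 is a small protein of the large subunit. The table listed it at 0 in all 6 WT samples and in prors1 replicate 6. The prors1 replicates 1 to 5 had deposited intensities of 0.145, 0.022, 0.165, 0.0727 and 0.161. It was therefore listed above 0 in 5 prors1 samples and in no WT sample, and no fold is given. How many other probes showed this was not counted. Each WT array listed more probes at 0 (368 to 396) than any prors1 array (215 to 316). An exact 0 may be a failed estimate as well as a low signal. After scaling, 3 of the 6 prors1 values and all WT values lay at the floor, and the log2 difference of 0.60 ± 0.28 (SE) did not pass (adjusted p = 0.109 in limma). It passed on the values as deposited, with 1.37 ± 0.43 (SE, adjusted p = 0.0141 in limma), where 61.4% of all features passed as higher. It also passed with the floor lowered to the 1st percentile of positive values (1.6, adjusted p = 0.0398 in limma).

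**Figure D2:**
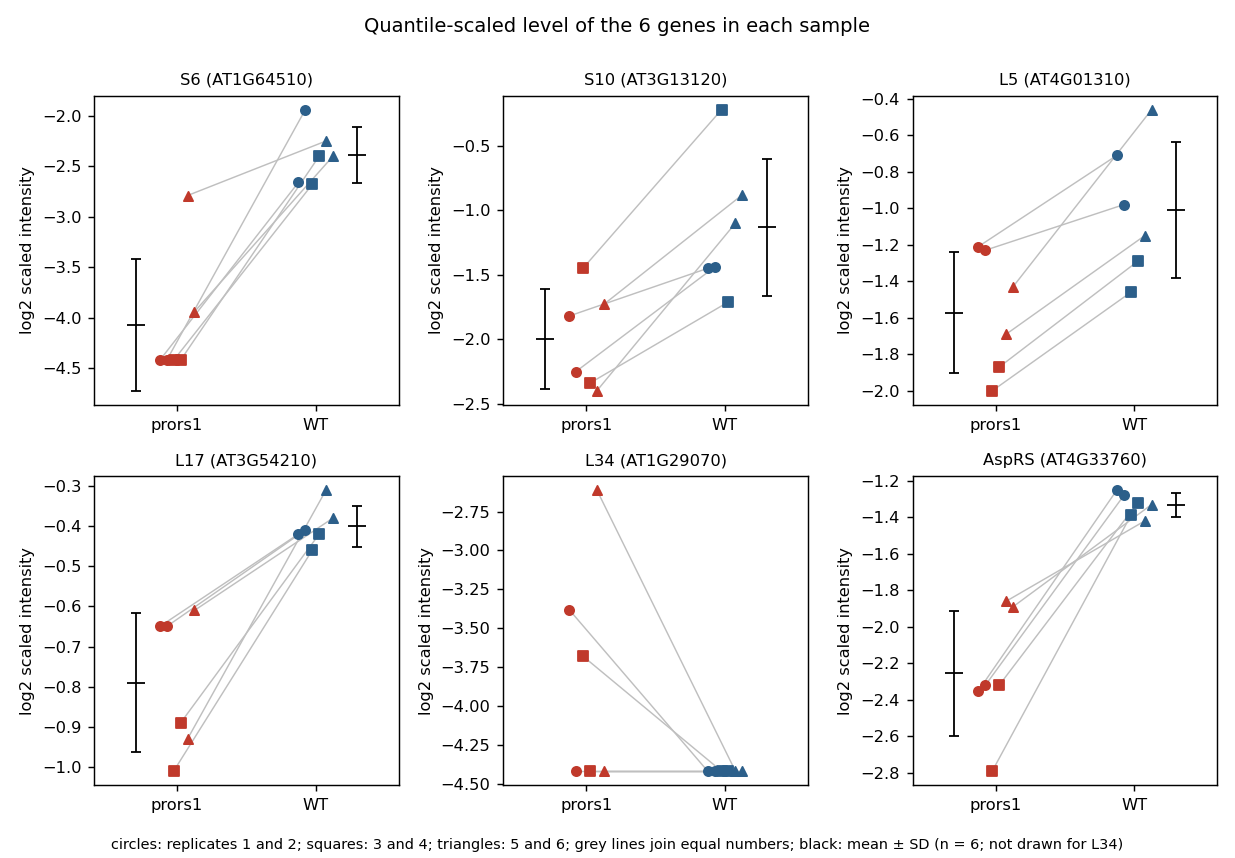
Quantile-scaled log2 intensity (vertical axis) of the same 6 genes, with prors1 samples in red on the left and WT samples in blue on the right. S6, L17 and AspRS show no overlap between the genotypes, beside 14.1% of all features wholly below WT. S10 and L5 overlap although every grey line runs upward to WT, beside 24.6% of all features lower in 6 of 6 pairs. The flat row at -4.42 in S6 and L34 is the floor.

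AspRS had nearly the same deposited signal in both genotypes. The prors1 replicates 1 to 6 had 0.280, 0.290, 0.276, 0.363, 0.274 and 0.271. The WT replicates 1 to 6 had 0.286, 0.289, 0.270, 0.3, 0.225 and 0.248. Apart from prors1 replicate 4, the prors1 samples fell inside the WT range. The deposited difference was 0.12 ± 0.12 on the log2 scale (SE, 95% interval -0.14 to 0.37, adjusted p = 0.391 in limma), which spans 0.908-fold to 1.29-fold of WT.

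Its rank on the array moved more than its signal did. AspRS lay between the 31.7th and 53.4th percentile of probes in prors1, and between the 64.1st and 67.7th in WT. Of all features, 16.3% ranked wholly below WT. On the quantile-scaled log2 scale AspRS averaged -2.25 ± 0.34 in prors1 and -1.33 ± 0.06 in WT (SD, n = 6 each). The difference of -0.92 ± 0.15 (SE, adjusted p = 0.000314 in limma) stayed past the threshold with sets averaged (adjusted p = 0.0265) and with sets as a random block (adjusted p = 0.00232). The difference was smaller in replicates 5 and 6, at -0.44 and -0.55, than in replicates 1 to 4, at -1.0 to -1.40. The prors1 arrays of replicates 5 and 6 also had the lowest medians of the mutant, 0.2497 and 0.25, and the part of the array medians in this was not tested.

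The 6 genes were set against all features under each scaling, as shown in the plot of differences by scaling. On the deposited values the log2 difference had a median of 0.91 over all features and of 0.21 over the 6 genes. Division by array means gave 0.78 for the median feature and 0.08 for the 6 genes. Division by array medians gave -0.10 and -0.94, and cyclic loess gave -0.01 and -0.68. S6, S10, L5, L17 and AspRS lay below the median feature, and L34 above it, under all 5 scalings.

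Which genes passed followed the same divide. With arrays divided by their medians, 5 of the 6 genes passed as lower, beside 30.5% of all features. After cyclic loess 4 did, beside 21.7%, with L5 at an adjusted p of 0.0669 in limma. As deposited no gene of the 6 passed as lower and 2 passed as higher, L17 and L34, beside the 61.4% of features given above. After division by array means, 1 passed as higher, L34, beside 55.9%, and none as lower, beside 7.41%. By limma's unadjusted p, S6 was under 0.05 and lower after division by array means, and none of the 6 genes was as deposited.

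**Figure D3:**
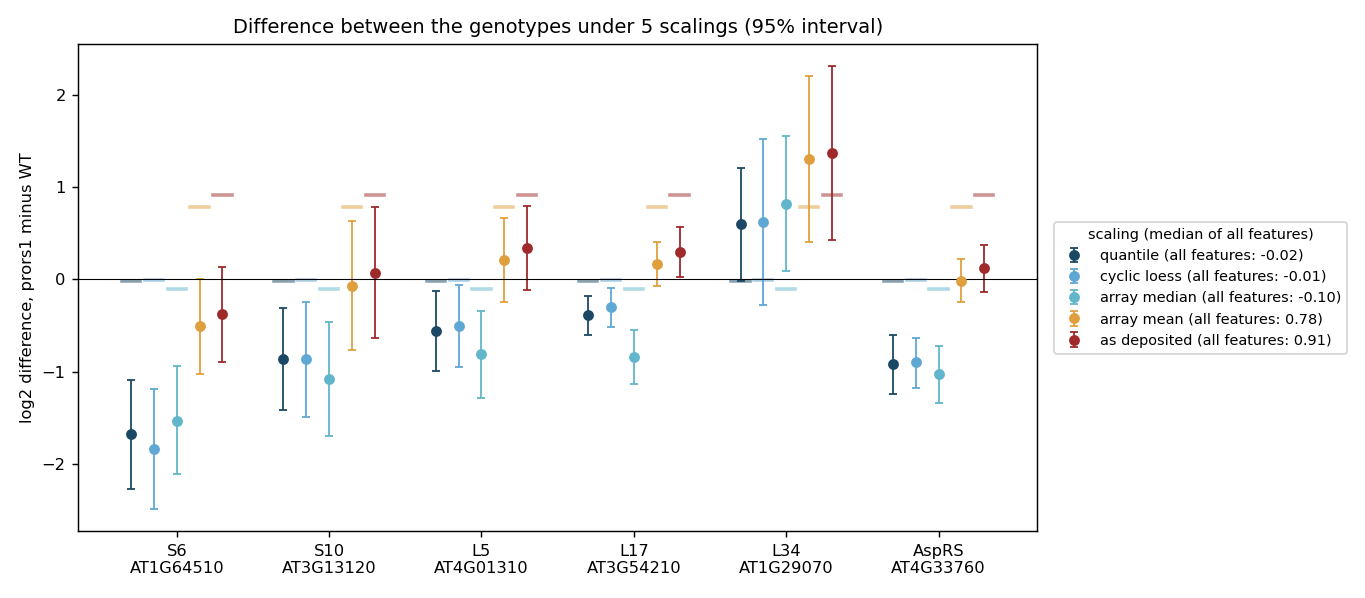
Log2 difference, prors1 minus WT (vertical axis), of each gene under 5 scalings (points) with the 95% interval from limma, and the median difference of all features under the same scaling as a short bar. The points of S6, S10, L5, L17 and AspRS lie below the bar of their own colour under each scaling, and those of L34 above it, while the zero line is crossed by S10, L5, L17 and AspRS when the scaling changes.

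Resemblance between samples bears on how firmly each call can be taken. Within a genotype, samples 1-2, 3-4 and 5-6 differed by an SD of log2 ratios of 0.3549 to 0.4491, and other pairs by 0.428 to 0.7623, over the 2385 features never at the floor. With these sets averaged, S6 (adjusted p = 0.0156), S10 (adjusted p = 0.0228) and AspRS passed as lower in limma, beside 11.8% of all features. With the sets as a random block, S6 (adjusted p = 0.00551), L17 (adjusted p = 0.0384) and AspRS passed as lower, beside 16.4%. S6 and AspRS passed in both fits. Exact permutation of 3 sets against 3 cannot go below p = 0.1, and S6, S10, L17, L34 and AspRS reached that value on the quantile-scaled values, against 0.2 for L5. The set means of the genotypes did not overlap for 42.1% of all features.

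Every prors1 value lay below every WT value after quantile scaling for S6, L17 and AspRS, 3 of the 6 genes, beside 14.1% of all features. The exact two-sided permutation p of these 3 genes was 0.00216, the smallest that 6 against 6 independent samples allow. For S10 it was 0.00433 and for L5 0.026. On the deposited intensities no gene of the 6 was separated in either direction, where 3.49% of features lay wholly below WT and 35.2% wholly above.

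Once genotype means were subtracted, samples of equal number had correlations of 0.3464 to 0.4893 between the genotypes, over the same 2385 features. Correlations of samples of unequal number are not given, so pairing by number is not shown. After quantile scaling prors1 was the lower sample in 6 of 6 pairs for S6, S10, L5, L17 and AspRS (exact sign-flip permutation p = 0.0312 for each, the smallest that 6 pairs allow). That p takes the 6 pairs as independent, although samples 1-2, 3-4 and 5-6 of a genotype resembled each other. Of all features, 24.6% were lower in all 6 pairs. As deposited prors1 was lower in 4 pairs for S6, 3 for S10 and 1 each for L5, L17 and AspRS. The pair that differed from the rest was replicate 5 for L17 (-0.14 on the deposited log2 scale) and replicate 6 for L5 (-0.48).

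**Figure D4:**
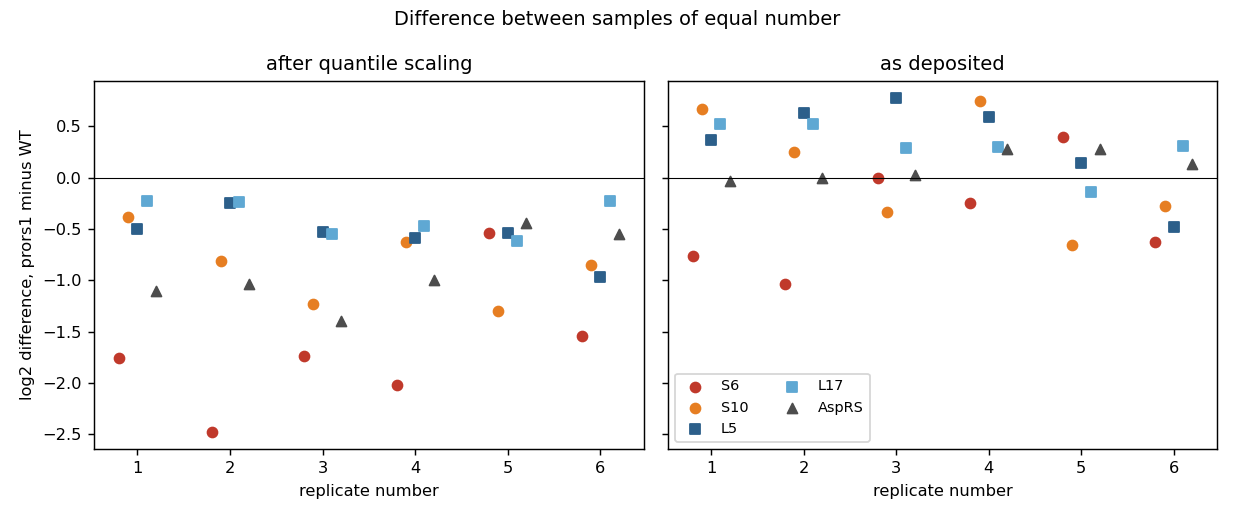
Log2 difference between the prors1 and the WT sample of equal number (vertical axis) for 5 genes, by replicate number (horizontal axis), after quantile scaling (left) and as deposited (right); L34 is left out because it was listed at 0 in WT. All points lie below 0 on the left, beside 24.6% of all features lower in 6 of 6 pairs. S6 is lowest there in replicates 1, 2, 3, 4 and 6, and points lie on both sides of 0 on the right.

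The genotype differences of the small subunit genes were set beside those of the large subunit genes. After quantile scaling they were -1.68 for S6 and -0.86 for S10, against -0.56 for L5, -0.39 for L17 and a value for L34 that the floor sets (0.26 to 1.6 over the floors tried), which is not compared here. The intervals of S10 (-1.41 to -0.31), L5 (-0.99 to -0.13) and L17 (-0.60 to -0.18) overlapped widely. That of S6 (-2.27 to -1.09) lay below those of L5 and L17, but it overlapped both without scaling and after division by array means or medians, and that of L5 also with sets averaged or as a random block and with the higher floor. With array medians the intervals were -2.11 to -0.94 for S6 and -1.28 to -0.34 for L5. The differences between these genes were not tested.

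A ratio of probes within an array does not change when the array is multiplied by a factor, so it does not depend on division by medians or means. The deposited log2 mean of S6 and S10 minus that of L5 and L17 was -1.75 ± 0.40 in prors1 and -1.27 ± 0.40 in WT (SD, n = 6 each). It was lower in prors1 in 6 of 6 pairs by number, with a mean difference of -0.48, while the groups overlapped (-2.20 to -1.26 in prors1, -1.71 to -0.56 in WT). S6 accounted for more of it than S10. The deposited log2 ratio of S6 to L17 was -3.09 ± 0.67 in prors1 and -2.41 ± 0.32 in WT (SD, n = 6 each), lower in 5 of 6 pairs. That of S10 to L17 was -1.11 ± 0.42 in prors1 and -0.87 ± 0.66 in WT (SD, n = 6 each), lower in 4 of 6 pairs. That of S10 to L5 was lower in 3 of 6 pairs, with a mean difference of -0.27. The contrast of both small with both large subunit genes was -0.79 after quantile scaling and -0.95 after cyclic loess, against the -0.48 as deposited. These contrasts were formed over chosen genes and were given no test.

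Within the genotypes the 6 genes did not vary as one group. Pearson's r over the 12 quantile-scaled samples was taken after subtraction of the genotype means. It was 0.66 between S6 and AspRS, and 0.64 both between L5 and L17 and between S6 and L34. It was -0.36 between S6 and S10, -0.38 between S10 and AspRS and -0.39 between L17 and L34. The other pairs lay between -0.17 and 0.33. Over the 12 samples without that step, r was 0.93 between S6 and AspRS, a value that includes the genotype difference. All these points share arrays and the resemblance of sets. S6 lay at the floor in prors1 replicates 1 to 4, and L34 in all WT samples and prors1 replicates 2, 4 and 6.

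Genes with the most similar profile were sought among 456 other single-gene features never at the floor, over the 12 samples. For S6 these were AT1G74470, the geranylgeranyl reductase of chlorophyll synthesis (r = 0.97), and AT3G04650 (r = 0.95). For AspRS they were AT3G04650 and AT1G62780 (both r = 0.97). L17 came closest to AT4G24750 and to PRK, the phosphoribulokinase of the Calvin cycle (both r = 0.92), and L5 to AT4G24750 and AT4G34310 (both r = 0.83). S10 was most like AT5G03900 (r = 0.87) and AT4G24930 (r = 0.85), and L34 most like AT3G29410 (r = 0.78) and AT5G48830 (r = 0.66), with 9 of its 12 values at the floor, so that its profile rests on 3 prors1 samples. With genotype means subtracted, AT1G74470 remained the closest to S6 (r = 0.86), and AspRS was closest to AT5G06990 and AT5G56070 (both r = 0.96). S6 lay at the floor in prors1 replicates 1 to 4, and AspRS had an SD of 0.34 in prors1 against 0.06 in WT. These r are the highest among 456 features and were not tested.

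Few other genes of organellar translation had a probe of their own. Of 40 nuclear loci for plastid ribosomal proteins that were looked up, 6 had a single-gene probe: the 5 described and AT5G65220, which encodes L29, a large subunit protein next to the tunnel exit in bacteria. L29 was listed at 0 in all 6 prors1 and all 6 WT samples and was not tested. Of 19 loci for organellar aminoacyl-tRNA synthetases only AspRS had one, and of 10 loci for plastid translation factors none had. Another 1 of the synthetase loci and 2 of the factor loci were named only on probes shared with other genes, which were not used. ATAB2 (AT3G08010), an RNA-binding protein that promotes translation of photosystem messenger RNAs in plastids, stood outside these lists and was picked after its values were seen. It fell by 1.33 ± 0.33 on the log2 scale in prors1 after quantile scaling (SE, adjusted p = 0.00643 in limma), with 3 of its 12 values at the floor. On the values as deposited its difference was -0.14 (adjusted p = 0.671), and with sets averaged the call was lost (adjusted p = 0.0755).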

How the data were processed

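The authors deposited 1 table of intensity values with a column per sample. Label, scanner, background correction and scaling are not given in the sources used here. Gene names come from GEO's platform annotation, an old one: 692 of 3439 probes name 1 gene (690 matched the TAIR10.1 gene table), 870 several and 1877 none. No coordinates or sequences are given.

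Arrays were quantile-scaled, a floor was set at the 5th percentile of all values above 0 (0.0467, holding 13.7% of values), and log2 was taken. The 135 features at the floor throughout were left out. Each of 3303 features was tested in limma 3.58.1 (R 4.3.3; lmFit and eBayes with genotype as the 1 term, two-sided, Benjamini-Hochberg). Percentile ranks came from deposited values. Alternatives were 4 other scalings, other floors, leaving out the dimmest 25% of features, a replicate block, sets of samples averaged or as a random block (consensus correlation 0.551), and leaving out samples. On simulated data with 200 changed features in 5 runs, 70% of 2-fold and 36.6% of 1.5-fold changes were called, with 5.6 false calls on average. The simulated noise was independent between samples, without sets, a floor or a difference in array medians, so these rates may not hold for the real arrays. Genes, lists and tests were chosen with earlier results of these data known. Precision is limited by the number of arrays. The named genes were the 6 genes, other listed loci with a single-gene probe, and for each of the 6 the 2 features of highest Pearson r. ATAB2 was named outside this rule, after its values were seen.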

Additional observations from a re-analysis of the deposited data

Results flagged for a closer look

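In 1 of 11 groups of 6 samples checked, 1 sample stood apart from the others, where chance gives about 1 in 20. S6 (AT1G64510) was highest among the prors1 samples in replicate 5, at -2.79 on the quantile-scaled log2 scale, with the next sample at -3.94. Of the others, 4 lay at the floor, which cuts off the range that this check divides by. On the deposited intensities (0.143, next 0.102) the gap was 0.47 of the range, under the limit of 0.625, so the sample did not stand apart there. Without that sample the difference of S6 was -1.93 (adjusted p = 5.25e-06 in limma).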

How the results depend on the processing

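As deposited, the log2 differences (prors1 minus WT) were -0.38 for S6, 0.07 for S10, 0.34 for L5, 0.30 for L17, 1.37 for L34 and 0.12 for AspRS, with 0 of the 6 genes called lower, 2 called higher and 2212 features called against 1414. After division by array means they were -0.51, -0.07, 0.21, 0.17, 1.30 and -0.02, with 0 called lower and 1 higher. Under these scalings 61.4% and 55.9% of features were called higher, and 5.5% and 7.41% lower. The part of the array medians in this was not tested. Cyclic loess ended the call of L5 (-0.51), and division by array medians ended none. A floor at the 1st percentile of positive values made L34 a call (1.6), so that 1 gene was higher; the floor set the size of L34 and S6.

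With sets averaged 749 features were called in either direction. Of the 6 genes 3 were called, all as lower, beside 11.8% of features, without L5 (-0.56) and L17 (-0.39). With sets as a random block 3 genes were called as lower, beside 16.4% of features, without S10 (-0.86) and L5 (-0.56). The cause of these changes was not tested. The replicate number as a block left the 5 calls past the threshold, beside 26.5% of features called lower. L34 stayed outside the threshold (0.60, adjusted p = 0.0924 in limma), and no call of the 6 genes changed.

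Over 21 fits that left out samples the differences ran from -2.0 to -1.46 for S6, -1.0 to -0.68 for S10, -0.66 to -0.45 for L5, -0.47 to -0.33 for L17, 0.36 to 0.72 for L34 and -1.13 to -0.78 for AspRS. L5 lost its call in 13 of these fits and S10 in 3. Between 3 and 5 of the 6 genes were called lower and none higher. In either direction 915 to 1572 of 3303 features were called, the lowest without samples 1-2. The share of features called lower was not counted in these fits, and with all 12 samples it was 23.2%. The small minus large subunit difference, L34 included, was -1.15 after quantile scaling, -0.83 as deposited, -0.85 with array means, -1.63 with the lower and -0.79 with the higher floor, and -1.25 to -1.06 with samples left out. Without L34, whose value the floor sets, the difference was -0.79 after quantile scaling and -0.48 as deposited. Leaving out the dimmest 25% of features removed S6 and L34 from the test. Listed loci outside the 6 genes gave no value, since L29 was at 0 throughout. Levels near the floor limit S6 and L34.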
